A study of Mus musculus with 12 samples.

Results

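The difference between 2 mouse genotypes in their lung response to CRE was measured as an interaction, which is the change from PBS to CRE in CKO minus the same change in WT on the log2 scale. All 12 of 12 libraries and all genes entered it in 1 fit, and 17473 of 54532 genes had enough counts to be tested. WT are Cc10-Cre mice and CKO are Cc10-Cre;Rhoafl/fl mice, so both genotypes carry the Cc10-Cre transgene and CKO adds the floxed *Rhoa* alleles. The groups were WT given PBS (WT_PBS), CKO given PBS (CKO_PBS), WT given CRE (WT_CRE) and CKO given CRE (CKO_CRE), with 3 whole-lung libraries each under a single batch number. What CRE stands for is not given in the labels, nor are age, dose or time, and the name is used as written for a treatment that is not Cre recombinase. The labels do not say that libraries came from separate mice, so p-values measure the spread between these samples.

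Cc10 is the secretoglobin encoded by *Scgb1a1*, and its promoter drives Cre in club cells, the secretory cells of the small airways also called Clara cells. RhoA is a small GTPase that acts through ROCK kinases and formins on actomyosin and cell junctions. The title of the series ties RhoA in Clara cells to allergic airway inflammation, the epithelial barrier and interstitial macrophages, and the interaction asks which parts of the CRE response depended on the floxed *Rhoa* genotype. A positive value means that CRE left a gene higher, relative to PBS, in CKO than in WT, through a larger rise, a smaller fall or an opposite change. Whole lung mixes all cell types, so fewer cells of a type and less RNA per cell cannot be told apart.

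Library totals ran from 16250674 to 21559210 counts, and levels are given as CPM, counts scaled to a common library size. The 10 lung defining markers were all detected, with summed levels of 20731 to 29799 CPM. *Rhoa* was at 398 to 488 CPM in the PBS libraries and 465 to 544 CPM in the CRE libraries, and its interaction was 0.03 ± 0.14 (SE, adjusted p = 0.938). Cells with an active Cc10 promoter are a minority in whole lung, so this level does not check the labels. CKO_CRE replicate 2 stood apart from the other CKO_CRE libraries. On the first principal component, which held 64.4% of the variance and separated CRE from PBS, it scored 82.6 against 10.1 and 31.2 for CKO_CRE replicates 1 and 3 and 71.6 to 84.7 for WT_CRE. On the second component (8.3%) it lay with CKO, at -28.8 against -34 and -27. The chromosome 9 gene *Nxpe4*, which differs between the genotypes, was at 1.64 CPM in it, against 1.44 and 1.88 CPM in the other CKO_CRE libraries and 9.29 to 21.8 CPM in WT_CRE. Counts of Y-linked genes gave 3 males in WT_PBS, 2 males and 1 female in CKO_PBS, and 1 male and 2 females in each CRE group. For each gene below whose call changed when CKO_CRE replicate 2 was left out, the value without it is also given.

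CRE changed the expression of 9927 genes in WT (56.8% of those tested, 28.5% higher and 28.3% lower) and 6814 in CKO (39%, 20.5% higher and 18.5% lower), by edgeR's quasi-likelihood test at a Benjamini-Hochberg adjusted p below 0.05, the threshold for a call throughout. The difference between these responses was called for 9 genes, 0.0515% of those tested. Of these 9, 6 were positive (0.0343%) and 3 negative (0.0172%), and 1 of the 9 lay on chromosome 9, which carries *Rhoa*. At an unadjusted level, 1791 genes (10.3%) had a p below 0.05. The median interaction over all tested genes was 0.01 on the log2 scale. In 4 of the 9, *Axl*, *Klra2*, *Mcemp1* and *Plet1*, expression fell in WT and rose in CKO. *Rbpj* did the opposite, *Fpr1* and *Slc16a11* had a smaller fall in CKO, and *Tdo2* and *Rgs4* rose less in CKO. The CRE libraries of the genotypes did not overlap for any of the 9 genes, which the test that chose them favours, and the PBS libraries did not for 4. Of all tested genes, 15.1% had no overlap under CRE and 15.2% none under PBS.

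**Figure D1:**
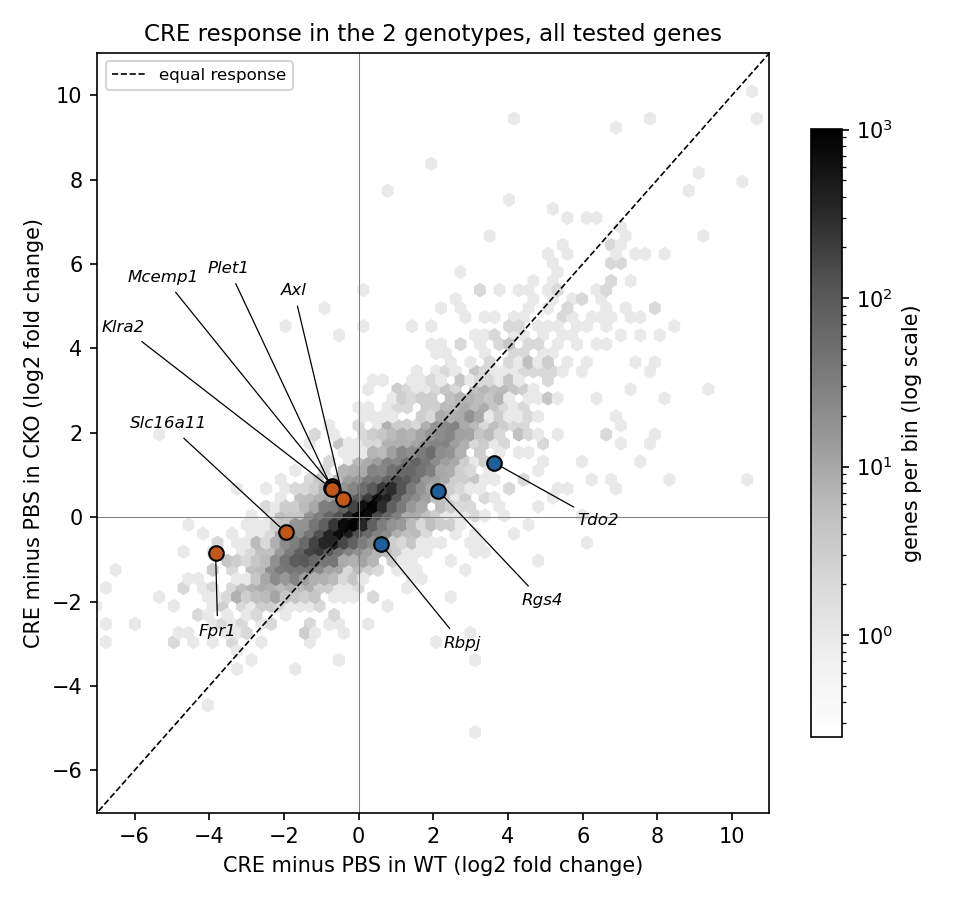
Log2 fold change from PBS to CRE in WT (x axis) against that in CKO (y axis) for all 17473 tested genes, with darker bins holding more genes, the 6 genes with a called positive interaction in orange and the 3 with a negative one in blue. The 9 genes lie off the dashed line of equal response, with *Fpr1* at -3.83 in WT and -0.84 in CKO and *Tdo2* at 3.63 and 1.29.

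Among the positive genes, several encode surface proteins of macrophages and other leukocytes. *Axl* (ENSMUSG00000002602, chromosome 7, 25757273 to 25788705) encodes a receptor tyrosine kinase that binds Gas6 and serves the uptake of dying cells. Its level was 219, 238 and 212 CPM in WT_PBS, 229, 226 and 219 CPM in CKO_PBS, and 158, 161 and 184 CPM in WT_CRE against 283, 304 and 322 in CKO_CRE. The PBS groups overlapped, while WT_CRE lay below both PBS groups and CKO_CRE above them. The log2 change with CRE was -0.41 in WT and 0.43 in CKO, an interaction of 0.84 ± 0.13 (SE, adjusted p = 0.0489).

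*Fpr1* (ENSMUSG00000045551, chromosome 17, 17876471 to 17883940) encodes a formyl peptide receptor through which phagocytes sense bacterial and mitochondrial peptides. It was at 15.7, 16.7 and 18.1 CPM in WT_PBS against 16.9, 16.7 and 13.4 in CKO_PBS. Under CRE it was at 0.568, 1.8 and 1.12 CPM in WT and 12.2, 5.84 and 8.17 CPM in CKO. All 3 WT_CRE libraries were therefore near the bottom of the scale, and every CKO_CRE library lay between them and the PBS libraries. The fall was -3.83 in WT and -0.84 in CKO on the log2 scale, an interaction of 2.99 ± 0.43 (adjusted p = 0.0392).

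*Mcemp1* (ENSMUSG00000013974, chromosome 8, 3665754 to 3669259) encodes a membrane protein of mast cells and other myeloid cells. Its CPM values were 21.9, 23.7 and 24 in WT_PBS, 24.4, 24.7 and 22.3 in CKO_PBS, 11.4, 17.8 and 13.4 in WT_CRE and 36.4, 44.1 and 38.7 in CKO_CRE. Both PBS groups were alike in range, and CRE took the genotypes to opposite sides of it (log2 -0.71 in WT and 0.74 in CKO, interaction 1.44 ± 0.20, adjusted p = 0.0392). *Klra2* (ENSMUSG00000030187, chromosome 6, 131219223 to 131247362), a lectin-like receptor of the Ly49 family, had the same shape. It measured 9.51 to 10 CPM in the 6 PBS libraries, then 5.8, 6.61 and 5.19 CPM in WT_CRE against 13.6, 18.6 and 14.8 in CKO_CRE (interaction 1.44 ± 0.20, adjusted p = 0.0392).

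*Plet1* (ENSMUSG00000032068, chromosome 9, 50494525 to 50505482), a surface protein that belongs to the alveolar macrophage list used below, was at 50.4, 55.2 and 48.9 CPM in WT_PBS against 44, 47.3 and 46.8 in CKO_PBS. With CRE it was at 27.4, 31.7 and 36.2 CPM in WT and 89.3, 59 and 69.7 CPM in CKO, and the lowest CKO_CRE library was replicate 2. Its interaction was 1.35 ± 0.20 (adjusted p = 0.0392). *Plet1* overlaps *Plet1os* on the opposite strand, and without a stated strand setting their reads cannot be told apart. On the same chromosome lie *Nxpe4* (48162023 to 48400025), whose level differs between the genotypes, and *Rhoa* (108306129 to 108337934). Whether this position has a part in the value of *Plet1* was not tested. *Cldn18*, *Cx3cr1* and *Arhgef12*, described below, also lie on chromosome 9, and for them this was not tested either. *Slc16a11* (ENSMUSG00000040938, chromosome 11, 70212752 to 70216417), of the monocarboxylate transporter family, already had separate PBS groups, at 30.1, 35.2 and 30 CPM in WT and 22.6, 18.6 and 15.2 CPM in CKO. Under CRE the order was turned round, with 9.4, 7.6 and 7.65 CPM in WT and 16.5, 12.2 and 15.4 CPM in CKO. Its fall was called in WT (log2 -1.95, adjusted p = 8.76e-06) and not in CKO (log2 -0.36, adjusted p = 0.1), and the interaction was 1.60 ± 0.23 (adjusted p = 0.0392).

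The 3 negative genes were *Rbpj*, *Tdo2* and *Rgs4*. *Rbpj* (ENSMUSG00000039191, chromosome 5, 53466152 to 53657362) encodes the DNA-binding factor through which Notch receptors act on transcription. It was at 88.1, 91.3 and 89.4 CPM in WT_PBS, 76.4, 69.3 and 57.9 CPM in CKO_PBS, and 136, 128 and 140 CPM in WT_CRE against 42.7, 41.4 and 47.2 in CKO_CRE. CKO was thus lower than WT in every library under PBS and by a wider margin under CRE, and the 3 CKO_CRE libraries were close together. The interaction was -1.22 ± 0.14 (adjusted p = 0.0204), the smallest adjusted p of the comparison.

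Reads of *Rbpj* may be shared with *Rbpj-ps3*, a processed pseudogene on chromosome 6 (46529354 to 46530794) whose sequence is 99.7% identical over 1441 bases. *Rbpj-ps3* was at 0.453 to 0.648 CPM in WT_PBS and 0.109 to 0.631 CPM in WT_CRE. In CKO it was at 0.413, 3.51 and 4.37 CPM under PBS and 8.47, 8.65 and 10.8 CPM under CRE, the reverse order of *Rbpj* itself. With the counts of both genes summed, an alternative chosen after seeing the data, the interaction was -1.0 ± 0.13 (adjusted p = 0.0391). The summed levels were 88.6, 91.7 and 90 CPM in WT_PBS, 76.8, 72.8 and 62.3 CPM in CKO_PBS, and 137, 128 and 141 CPM in WT_CRE against 51.1, 50.1 and 58 in CKO_CRE, so the CRE groups stayed apart. *Rbpj* also overlaps *Gm10441* and *Gm40304* on the opposite strand.

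*Tdo2* (ENSMUSG00000028011, chromosome 3, 81957090 to 81976202) encodes tryptophan dioxygenase, which opens the kynurenine pathway of tryptophan breakdown. Its PBS levels were 1.92, 1.66 and 2.95 CPM in WT and 2.58, 2.22 and 2.64 CPM in CKO, and its CRE levels 29.4, 27.1 and 23.7 CPM in WT and 5.65, 7.71 and 4.82 CPM in CKO. It rose in both genotypes, by log2 3.63 in WT and 1.29 in CKO (interaction -2.34 ± 0.32, adjusted p = 0.0392). *Rgs4* (ENSMUSG00000038530, chromosome 1, 169741477 to 169747642), which speeds up the shut-off of G protein signals, was at 11.8, 10.1 and 12.8 CPM in WT_PBS against 19, 16.6 and 18.3 in CKO_PBS. It reached 57.1, 49 and 46.1 CPM in WT_CRE against 28.9, 33.7 and 20.6 in CKO_CRE, so that CKO began higher and ended lower (interaction -1.51 ± 0.23, adjusted p = 0.0489).

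**Figure D2:**
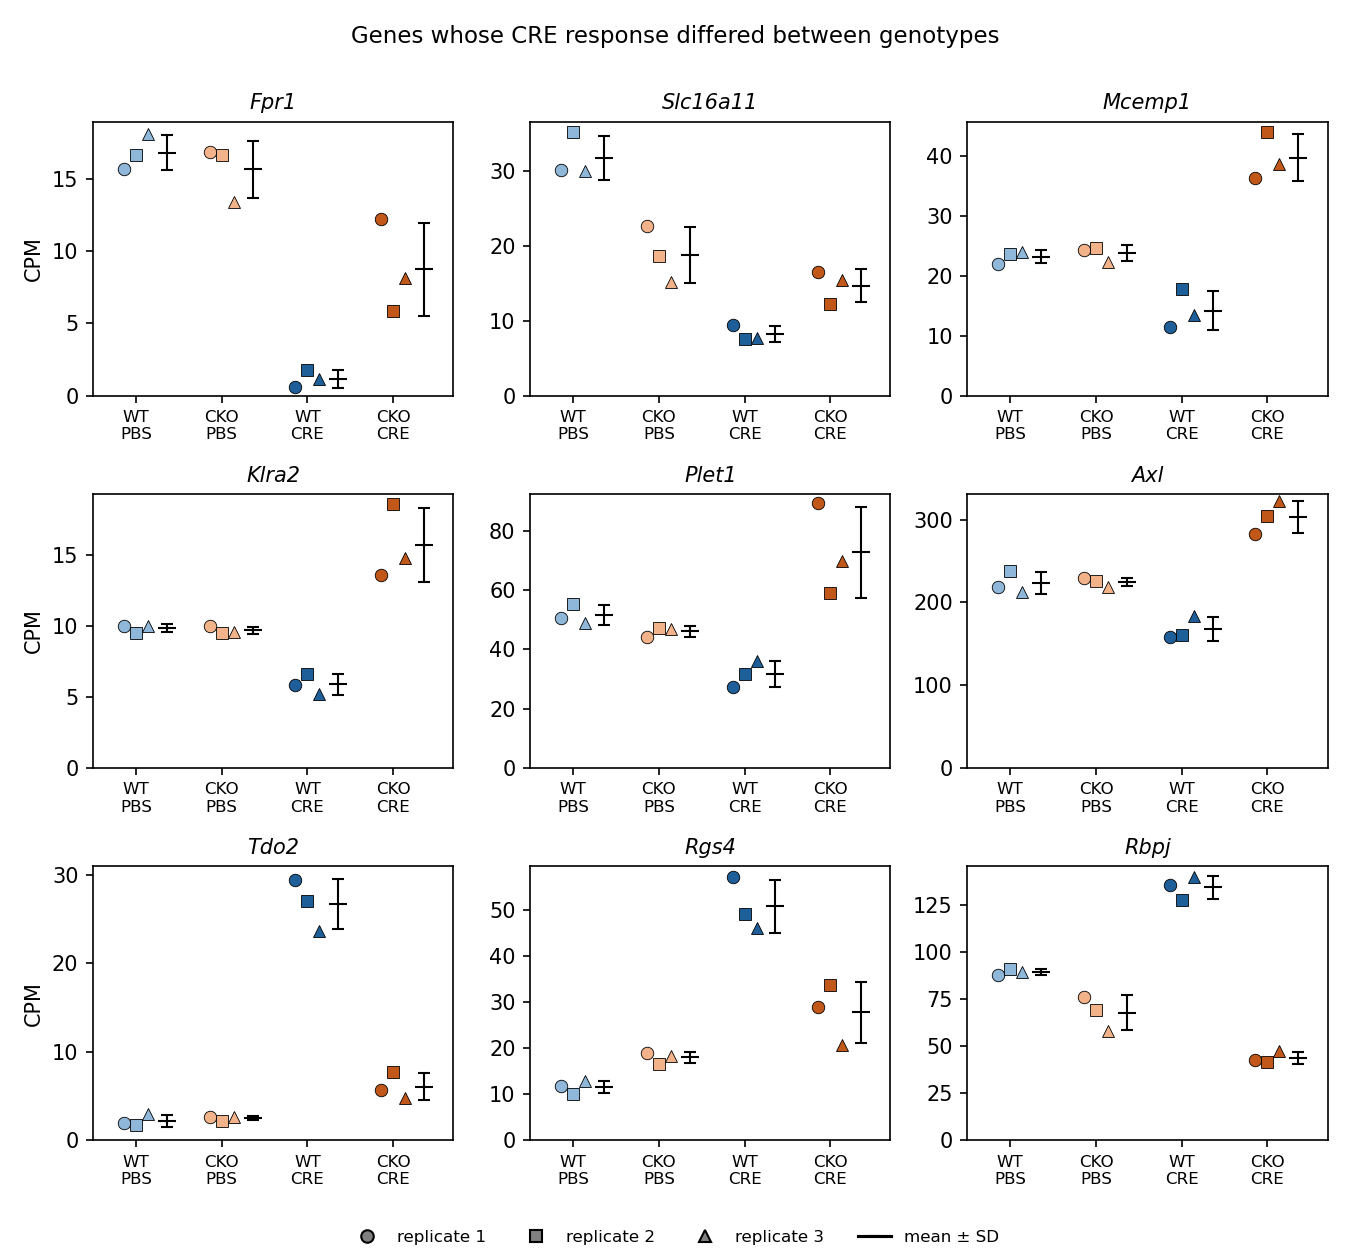
CPM of the 9 genes called in the interaction, with 1 point for each library (circle, square and triangle for replicates 1, 2 and 3) and the mean ± SD of each group of 3. The WT_CRE and CKO_CRE points do not overlap in any panel, for example 158 to 184 against 283 to 322 CPM for *Axl*.

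These 9 calls lay close to the threshold and the number of calls depended on single libraries. Leaving out 1 library at a time, edgeR called 0 genes without WT_PBS replicate 1 or 2, CKO_PBS replicate 1, or WT_CRE replicate 1 or 3, with 1303 to 1961 genes at an unadjusted p below 0.05. It called 1 gene without WT_PBS replicate 3 (*Tdo2*), CKO_PBS replicate 2 (*Tff2*), CKO_PBS replicate 3 (*Rbpj*) or CKO_CRE replicate 3 (*Rbpj*), and 4 without WT_CRE replicate 2 (*Fpr1*, *Fpr2*, *Mcemp1* and *Rbpj*). Without CKO_CRE replicate 1 there were 21 calls (0.117%, with 0.1% positive and 0.0167% negative), and without CKO_CRE replicate 2 there were 2710 (15.1%), 1618 positive (9.02%) and 1092 negative (6.09%). Both of these sets held all 9 genes. Sex as a covariate left *Mcemp1* and *Rbpj*, and the replicate number as a block left the same 2 genes (each 0.0114%, with 0.00572% in each direction). Without the filter on low counts there were 23 calls (0.0712%, with 0.0526% positive and 0.0186% negative). DESeq2's Wald test called 119 genes (0.369%, with 0.239% positive and 0.13% negative) and limma-voom with sample quality weights 4371 (25%, with 14.5% positive and 10.6% negative). All 9 genes were in both sets, and voom gave CKO_CRE replicate 2 a weight of 0.122 against 0.519 to 3.47 for the others in the CRE groups. Within CKO_CRE the weights were 0.519, 0.122 and 3.47 for replicates 1 to 3, so the voom values of that group rest mainly on replicate 3. Counts from voom, here and below, therefore come close to leaving out replicate 2 and are not separate support beside that setting.

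**Figure D3:**
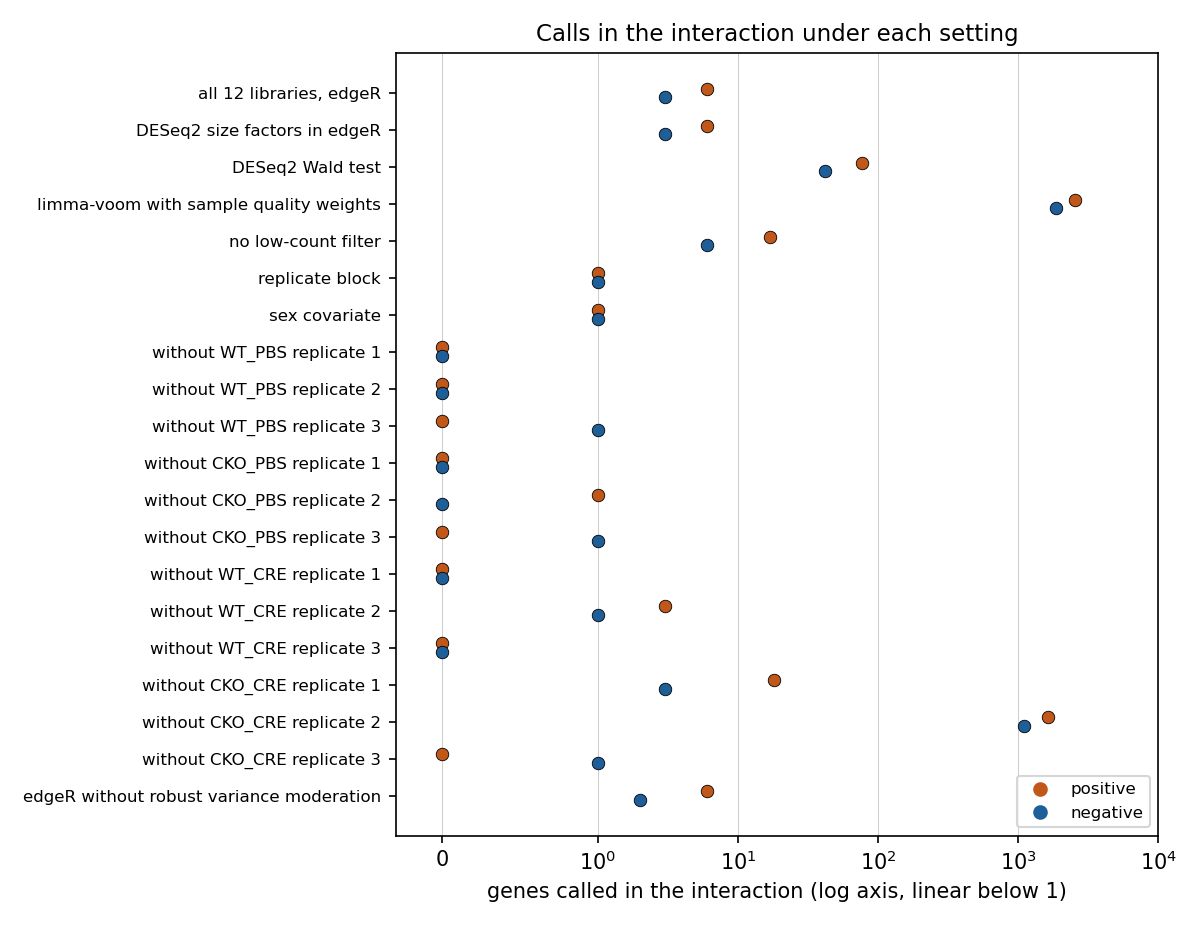
Number of genes with a called interaction (x axis, log scale above 1) under each processing setting (y axis), orange for positive and blue for negative values. Most settings that leave out 1 library give 0 to 4 calls, while leaving out CKO_CRE replicate 2 gives 1618 positive and 1092 negative calls.

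Without CKO_CRE replicate 2, most called genes had a weaker response of the same direction in CKO. Of the 2710 genes, 1323 (48.8%) had a smaller fall and 923 (34.1%) a smaller rise in CKO, 276 (10.2%) fell in WT and rose in CKO, and 164 (6.05%) rose in WT and fell in CKO. A larger rise was seen for 19 genes (0.701%) and a larger fall for 5 (0.185%). This setting compares 2 CKO_CRE libraries with 3 in each other group and takes its spread mainly from the other groups. It leaves out the CKO_CRE library most like WT_CRE, so its count cannot be read apart from that choice.

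The club, ciliated, type 1 alveolar and tight junction lists had mostly positive values, which not all epithelial lists shared. Type 2 alveolar genes had a median interaction of 0.03, with 9 above and 6 below 0. Basal and squamous keratin genes had -0.08 (3 above and 6 below), and adherens junction and desmosome genes 0.08 (11 and 4). Endothelial genes, which are not epithelial, had 0.18 (13 and 3). Of 21 tested club cell genes, 12 had a positive value at an unadjusted p below 0.05 (6.03% of all genes did) and none a negative one. edgeR called 0 of the 21, DESeq2 called 5 and voom 12, all positive, and edgeR without CKO_CRE replicate 2 called 11. Over all tested genes voom called 14.5% positive and 10.6% negative, and edgeR without CKO_CRE replicate 2 called 9.02% and 6.09%. At an unadjusted p below 0.05, 6.03% were positive and 4.22% negative. These shares apply to every list below. The list's median interaction was 0.68, and 0.97 without CKO_CRE replicate 2. Its median difference between CKO and WT was -0.31 under PBS and 0.59 under CRE, so both treatments contributed. *Cyp2f2*, a cytochrome P450 of club cells, was at 1120, 1081 and 1147 CPM in WT_PBS, 790, 807 and 725 CPM in CKO_PBS, and 131, 117 and 119 CPM in WT_CRE against 264, 105 and 242 in CKO_CRE. CKO_CRE replicates 1 and 3 were at about the same level, above all WT_CRE libraries, and replicate 2 lay below them. Every CKO_PBS library was below WT_PBS, and CKO differed from WT by log2 -0.53 under PBS and 0.73 under CRE. The interaction of *Cyp2f2* was 1.26 ± 0.35 (adjusted p = 0.353), and 1.57 ± 0.12 without CKO_CRE replicate 2 (adjusted p = 1.74e-05).

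For the glutathione transferase gene *Gsta3*, CKO_CRE replicates 1 and 3 were again above WT_CRE. Replicate 2 lay just above WT_CRE, so the CRE groups did not overlap. The gene was at 123, 131 and 130 CPM in WT_PBS, 112, 85.3 and 111 CPM in CKO_PBS, and 13.1, 12.2 and 10.1 CPM in WT_CRE against 45.5, 14.1 and 42 in CKO_CRE (1.84 ± 0.46, adjusted p = 0.305, or 2.21 and 1.74e-05 without CKO_CRE replicate 2). *Pon1*, which encodes paraoxonase, came nearest to a call in the list. Its level was 92.4, 73.2 and 78.7 CPM in WT_PBS, 46.3, 47.7 and 36.6 CPM in CKO_PBS, and 2.4, 3.01 and 2.62 CPM in WT_CRE against 7.45, 3.21 and 6.76 in CKO_CRE (2.02 ± 0.34, adjusted p = 0.0907, or 2.31 and 6.66e-05 without CKO_CRE replicate 2). The genotypes were apart in both treatments and in opposite order, so the interaction of *Pon1* rests on a lower PBS level in CKO as well as a higher CRE level. *Scgb3a2*, which encodes another club cell secretoglobin, went from 2259, 2419 and 2276 CPM to 184, 203 and 183 in WT and from 1102, 1806 and 1857 CPM to 565, 228 and 348 in CKO, with no overlap under CRE (1.55 ± 0.39, adjusted p = 0.291, or 0.00554 without CKO_CRE replicate 2). *Scgb1a1* itself was at 8.64, 9.73 and 6.52 CPM in WT_CRE against 20.2, 5.9 and 10.9 in CKO_CRE. Its groups overlapped and its interaction was 0.54 ± 0.51 (adjusted p = 0.7), 0.88 without CKO_CRE replicate 2 and -0.01 without CKO_CRE replicate 1.

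Type 1 alveolar cells form the thin gas-exchange surface. All 13 tested genes of these cells had a positive interaction, with a median of 0.49. Of them, 10 were positive at an unadjusted p below 0.05, against 6.03% of all genes. Neither edgeR nor DESeq2 called any of the 13. voom called 11, against 14.5% of all genes positive, and edgeR called 11 without CKO_CRE replicate 2, against 9.02%. *Clic5*, a chloride channel-like protein of these cells, was at 1361 to 1590 CPM in WT_PBS, with 1354 to 1540 CPM in CKO_PBS. It measured 332, 391 and 440 CPM in WT_CRE against 798, 367 and 857 in CKO_CRE (0.86 ± 0.35, adjusted p = 0.442, or 0.000672 without CKO_CRE replicate 2). For this list the median difference between the genotypes was -0.02 under PBS and 0.57 under CRE.

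Ciliated cells move mucus along the airway, and the ciliated list had a median interaction of 0.79 (0.51 without CKO_CRE replicate 1). Of 16 genes, 9 were positive at an unadjusted p below 0.05, against 6.03% of all genes. edgeR and DESeq2 called 0 of the 16. voom called 12, against 14.5% of all genes positive, and edgeR 9 without CKO_CRE replicate 2, against 9.02%. Here the PBS groups contributed about as much as the CRE groups. The median difference between CKO and WT was -0.38 under PBS and 0.33 under CRE. *Dnah11*, an axonemal dynein heavy chain, was at 20.7, 22.3 and 25.2 CPM in WT_PBS, 14.2, 13.9 and 13.7 CPM in CKO_PBS, and 5.36, 4.1 and 6.31 CPM in WT_CRE against 13, 4.09 and 9.47 in CKO_CRE (1.45 ± 0.43, adjusted p = 0.374, or 1.80 and 0.000543 without CKO_CRE replicate 2).

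Tight junctions seal the epithelium, and their 22 tested genes had a median interaction of 0.25. At an unadjusted p below 0.05, 6 were positive, against 6.03% of all genes, and none negative. edgeR and DESeq2 called 0. voom called 9 positive and 1 negative, against 14.5% and 10.6% of all genes. edgeR without CKO_CRE replicate 2 called 6 positive and 1 negative, against 9.02% and 6.09%. *Cldn18*, the claudin of alveolar cells, was at 776, 880 and 907 CPM in WT_PBS against 893, 807 and 854 in CKO_PBS. CRE brought it to 387, 421 and 465 CPM in WT and 550, 531 and 668 CPM in CKO, groups that did not overlap (0.46 ± 0.17, adjusted p = 0.418, or 0.029 without CKO_CRE replicate 2). *Cldn4*, a claudin that rose with CRE in both genotypes, was lower than in WT_CRE in 2 of the 3 CKO_CRE libraries. It was at 31.3, 35.6 and 27.1 CPM in WT_CRE against 8.89, 50.4 and 8.47 in CKO_CRE, against 3.54 to 5.45 CPM in the PBS libraries (-0.78 ± 0.84, adjusted p = 0.731, or -2.15 ± 0.23 and 0.000174 without CKO_CRE replicate 2). Replicate 2 was the highest of all 12 libraries and replicates 1 and 3 the lowest of the CRE libraries. Cardiac muscle genes, a tissue that a dissected lung can hold, had a median interaction of 0.41 (0.21 without CKO_PBS replicate 2 and 0.19 without CKO_CRE replicate 3) with 10 of 10 genes above 0 and no defining marker at 0. Their summed level was 334 to 499 CPM in WT_PBS, 439 to 663 in CKO_PBS, 204 to 228 in WT_CRE and 234 to 436 in CKO_CRE, and their part in the values of the lining was not tested.

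Values of macrophage genes lay on both sides of 0. Alveolar macrophages are the resident phagocytes of the air spaces. Of their 19 tested genes, 9 were positive and 1 negative at an unadjusted p below 0.05, with *Plet1* called. Over all tested genes 6.03% were positive and 4.22% negative, so 1 negative gene is near that share. That gene is *Mrc1*, which is also in the interstitial macrophage and alternative activation lists. The list's median interaction was 0.36, with 0.10 when CKO_CRE replicate 1 was left out and 0.23 when WT_CRE replicate 3 was. *Krt79* was at 27.3 to 38 CPM across the PBS libraries, 4.23, 9.4 and 1.92 CPM in WT_CRE against 76.1, 26.7 and 49.5 in CKO_CRE, with no overlap between the CRE groups (3.16 ± 0.65, adjusted p = 0.204, or 3.47 and 0.0112 without CKO_CRE replicate 2). *Cidec*, a lipid droplet protein, was at 2.14, 1.91 and 0.856 CPM in WT_CRE against 13.9, 2.98 and 8.82 in CKO_CRE, against 16.2 to 21.3 CPM under PBS (2.65 ± 0.61, adjusted p = 0.227, or 3.06 and 0.000229 without CKO_CRE replicate 2). The scavenger receptor gene *Marco* was at 2.4, 4.86 and 1.39 CPM in WT_CRE against 29.3, 5.14 and 8.47 in CKO_CRE (2.23 ± 0.86, adjusted p = 0.435). For all 3 genes replicate 2 was the lowest CKO_CRE library and still above every WT_CRE library. Without it edgeR called 8 genes of the list positive and 4 negative, against 9.02% and 6.09% of all genes. The negative ones included *Mrc1*, the mannose receptor (-0.66, adjusted p = 0.00307), and the lectin-like scavenger receptor *Olr1* (-1.26, adjusted p = 0.000917). With all libraries they were at -0.63 (adjusted p = 0.185) and -0.58 (0.661).

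Interstitial macrophages live in the tissue between airways and alveoli and are named in the series title. Their 19 tested genes had a median interaction of -0.34, with 3 positive and 2 negative at an unadjusted p below 0.05. edgeR called 0, DESeq2 1 positive and 2 negative, and voom 3 and 4 (14.5% and 10.6% of all genes). Single libraries moved this median widely, to -0.63 without CKO_CRE replicate 2 (2 positive and 4 negative calls), -0.07 without CKO_CRE replicate 1, -0.12 without CKO_PBS replicate 2 and -0.22 without WT_PBS replicate 1. *C1qa*, a subunit of complement C1q, was at 589, 535 and 537 CPM in WT_CRE against 245, 593 and 360 in CKO_CRE, and the groups overlapped through replicate 2 (-0.34 ± 0.38, adjusted p = 0.738, with -0.74 without CKO_CRE replicate 2 and -0.08 without CKO_CRE replicate 1). *Cd163*, the haemoglobin scavenger receptor, did not overlap, at 150, 151 and 140 CPM in WT_CRE against 59.7, 62.5 and 55.1 CPM in CKO_CRE, after 12.7 to 19.5 CPM under PBS (-1.08 ± 0.20, adjusted p = 0.131, or 0.00406 without CKO_CRE replicate 2). In contrast to *C1qa*, replicate 2 lay with the other CKO_CRE libraries for *Cd163*. *Cx3cr1*, the fractalkine receptor, was positive, at 10.3, 14.4 and 15.5 CPM in WT_CRE against 30.2, 27.5 and 36.2 in CKO_CRE against 12.8 to 20.5 CPM under PBS (1.34 ± 0.26, adjusted p = 0.159, or 0.00441 without CKO_CRE replicate 2).

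Lists of type 2 immunity and alternative macrophage activation had negative medians. Of 15 alternative activation genes 5 were negative and none positive at an unadjusted p below 0.05 (4.22% of all genes were negative), with a median of -0.59 (-0.36 without CKO_PBS replicate 2 and -0.31 without WT_CRE replicate 1). edgeR called 0, DESeq2 2 and voom 6, all negative, and edgeR without CKO_CRE replicate 2 called 6. *Arg1*, which encodes arginase, was at 1.01 to 3.46 CPM under PBS, 1340, 1637 and 1038 CPM in WT_CRE against 140, 1185 and 240 in CKO_CRE. The interaction was -1.13 ± 1.09 (adjusted p = 0.704), and -2.57 ± 0.59 without CKO_CRE replicate 2 (adjusted p = 0.0243). *Chil3*, a chitinase-like protein, was at 10106, 8457 and 9860 CPM in WT_CRE against 8984, 9956 and 7809 in CKO_CRE, and these groups overlapped (-0.36 ± 0.21, adjusted p = 0.56).

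The type 2 cytokines and chemokines had a median interaction of -0.73 over 13 tested genes, 3 negative at an unadjusted p below 0.05, with 0 called by edgeR, 1 by DESeq2 and 3 by voom. Without CKO_CRE replicate 2 the median was -1.13, and edgeR called 2 negative. *Il13*, the cytokine that drives mucus production, was at 12.3, 16.3 and 10.1 CPM in WT_CRE against 2.76, 4.27 and 2.18 in CKO_CRE, and from 0 to 0.185 CPM under PBS. The CRE groups did not overlap, but PBS levels near 0 left the log2 interaction wide, at -1.19 ± 1.22 (adjusted p = 0.716), and its sign turned, to 2.19, without CKO_PBS replicate 2. *Ccl24*, an eosinophil chemokine, was at 671, 612 and 415 CPM in WT_CRE against 67.8, 217 and 66.4 in CKO_CRE from at most 0.648 CPM under PBS (-1.17 ± 1.60, adjusted p = 0.791, with -1.97 without CKO_CRE replicate 2). *Ccl11* gave -0.65 ± 0.30 (adjusted p = 0.488), *Il4* -0.73 ± 0.47 (0.586) and *Il5* -0.62 ± 1.38 (0.877). *Il33*, an alarmin of epithelial and stromal cells, came nearest to a call, at 907, 783 and 915 CPM in WT_CRE against 583, 606 and 429 in CKO_CRE after 121 to 146 CPM in WT_PBS, with 159, 253 and 196 CPM in CKO_PBS (-1.30 ± 0.25, adjusted p = 0.152, or 0.00557 without CKO_CRE replicate 2).

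Monocyte and inflammatory macrophage genes had a median interaction of -0.52 (-0.27 without CKO_PBS replicate 2), with 3 of 15 negative and none positive at an unadjusted p below 0.05. Over all tested genes 4.22% were negative at that level. edgeR and DESeq2 called 0, voom 5 negative, and edgeR 5 negative without CKO_CRE replicate 2. Negative calls over all tested genes were 10.6% with voom and 6.09% without CKO_CRE replicate 2. *Nos2*, the inducible nitric oxide synthase, was at 174, 130 and 138 CPM in WT_CRE against 6.13, 46 and 16.4 in CKO_CRE, after 3.46 to 6.62 CPM under PBS (-2.51 ± 0.82, adjusted p = 0.411, or 0.0063 without CKO_CRE replicate 2). *Spp1*, which encodes osteopontin, was at 1604, 1699 and 1835 CPM in WT_CRE but 178, 2369 and 250 CPM in CKO_CRE (-1.18 ± 1.10, adjusted p = 0.695). For *Nos2* all 3 CKO_CRE libraries were below WT_CRE, whereas for *Spp1* replicate 2 was above it, and without that library *Spp1* was at -3.31 ± 0.33 (adjusted p = 0.000544). Among 18 fibroblast and matrix genes, 7 were negative and 2 positive at an unadjusted p below 0.05, against 4.22% and 6.03% of all genes. edgeR called 0, DESeq2 3 negative and 1 positive, and voom 11 and 4, where voom called 10.6% and 14.5% of all genes. *Col1a1*, a chain of type I collagen, was at 2083, 1913 and 1768 CPM in WT_CRE against 1377, 1286 and 1211 in CKO_CRE (-0.76 ± 0.16, adjusted p = 0.202, or 0.00542 without CKO_CRE replicate 2), and here replicate 2 did not stand apart. *Inmt* and *Dcn* of this list were positive, at 1.56 ± 0.42 (adjusted p = 0.339, or 1.91 and 7.98e-05 without CKO_CRE replicate 2) and 0.39 ± 0.15 (0.435, or 0.48 and 0.0265). Without that library edgeR called 4 genes of the list positive and 7 negative, against 9.02% and 6.09% of all genes.

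**Figure D4:**
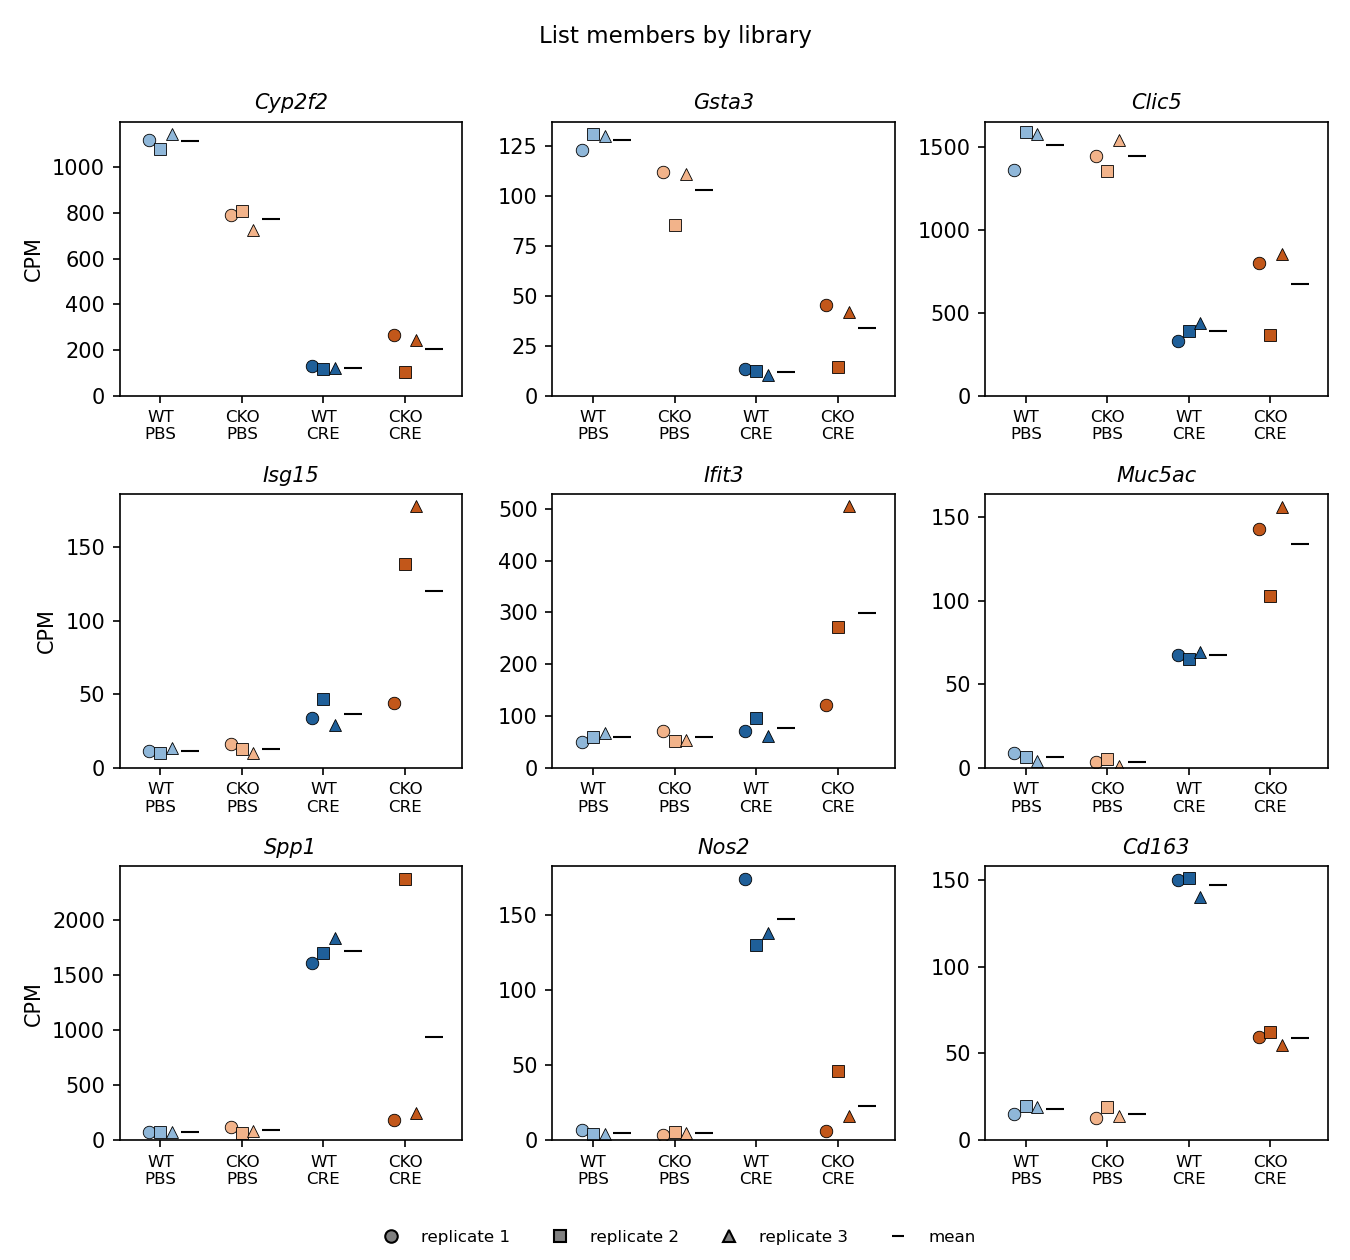
CPM of 9 list members by library (circle, square and triangle for replicates 1, 2 and 3; the dash is the group mean). CKO_CRE replicate 2 lies with WT_CRE for *Cyp2f2*, *Gsta3*, *Clic5* and *Spp1* (2369 CPM against 178 and 250 CPM in the other CKO_CRE libraries) and with the other CKO_CRE libraries for *Cd163*.

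Neutrophil genes had a negative median whose size lay mainly in the difference between the PBS groups. All 15 tested genes were below 0, with a median interaction of -1.37. At an unadjusted p below 0.05, 8 were negative, against 4.22% of all genes. edgeR and DESeq2 called 0. voom called 11, against 10.6% of all genes negative, and edgeR 2 without CKO_CRE replicate 2, against 6.09%. The median difference between CKO and WT was 1.23 under PBS and -0.18 under CRE. *S100a9*, a subunit of calprotectin, was at 32.3, 17.4 and 20.2 CPM in WT_PBS, 68.6, 142 and 33.1 CPM in CKO_PBS, and 70.6, 76.3 and 59.8 CPM in WT_CRE against 61.3, 100 and 21.5 in CKO_CRE. All CKO_PBS libraries were above WT_PBS and the CRE groups overlapped (-1.98 ± 0.82, adjusted p = 0.462). CKO_PBS replicate 2, the female of that group, was the highest PBS library, and without it the list's median was -1.0.

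Mucus genes, too, were read against unequal PBS levels. The 15 tested genes had a median interaction of 0.28 (0.57 without CKO_PBS replicate 2, 0.46 without WT_PBS replicate 3 and 0.45 without CKO_CRE replicate 3), with a median difference between CKO and WT of -0.55 under PBS and -0.33 under CRE, and 3 were positive at an unadjusted p below 0.05. edgeR called 0, DESeq2 1 positive, and voom 4 positive and 2 negative (14.5% and 10.6% of all genes). The mucin gene *Muc5ac* was at 8.59, 6.7 and 4.36 CPM in WT_PBS, 3.36, 5.17 and 1.2 CPM in CKO_PBS, and 67.2, 65.2 and 69.1 CPM in WT_CRE against 143, 103 and 156 in CKO_CRE. Every CKO_CRE library was above WT_CRE, in contrast to *Fcgbp* (173, 151 and 205 against 119, 85.1 and 114 CPM) and *Agr2* (25.5, 31.4 and 23.5 against 17.1, 19.6 and 16.2 CPM), where every one was below. Those are levels under CRE and not interactions. No gene of the list had a negative interaction at an unadjusted p below 0.05. The interaction of *Muc5ac* was 2.01 ± 0.50 (adjusted p = 0.305, or 0.0332 without CKO_CRE replicate 2). *Tff2*, a trefoil peptide of mucous cells, was at 17.8, 22.4 and 13.7 CPM in WT_PBS, 1.91, 8.78 and 2.31 CPM in CKO_PBS, and 46.9, 52.8 and 62 CPM in WT_CRE against 38.4, 39.5 and 31.6 in CKO_CRE (1.48 ± 0.59, adjusted p = 0.454). CKO was lower than WT under both treatments, and the positive value of *Tff2* comes from the wider gap under PBS.

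Interferon response genes had positive values in all but 1 case, with another order of the CKO_CRE libraries than the epithelial lists. Interferons are antiviral cytokines, and factors they activate bind response elements in the promoters of such genes. Of 22 tested genes, 21 had a positive interaction, 10 at an unadjusted p below 0.05 (6.03% of all genes were), and the median was 1.00. edgeR called 0 of the 22, DESeq2 2 and voom 12, all positive, with 0 called without CKO_CRE replicate 2 and 4 without CKO_CRE replicate 1 (*Ifit2*, *Ifit3*, *Isg15* and *Zbp1*). Positive calls over all tested genes were 14.5% with voom, 9.02% without CKO_CRE replicate 2 and 0.1% without CKO_CRE replicate 1. The list's median log2 change from the PBS mean of the same genotype was 0.85, 0.86 and 0.39 in WT_CRE replicates 1 to 3, and 0.96, 2.10 and 2.73 in CKO_CRE replicates 1 to 3. Replicate 1 was here the CKO_CRE library nearest to WT_CRE, not replicate 2. Calls made without replicate 1 therefore cannot be read apart from the choice to leave it out. It was also the male of its group, and with sex as a covariate the list's median was 1.12.

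Promoters of 3 genes of this list are shown because the genes moved together. They are the 3 with the smallest interaction p among those whose promoter holds the core of the interferon-stimulated response element, searched on both strands as GAAA, any 2 bases and GAAA again, overlapping matches counted, in the 250 bases before each start. The sequences are from RefSeq on GRCm38.p6, written 5′ to 3′ on the gene's strand, with every matching stretch in capitals, which reads TTTC, any 2 bases and TTTC where the core is on the other strand. The windows are chr19:34583279-34583528 (plus strand) for *Ifit3*, chr19:34640639-34640888 (plus strand) for *Ifit1* and chr4:156200819-156201068 (minus strand) for *Isg15*.
Ifit3: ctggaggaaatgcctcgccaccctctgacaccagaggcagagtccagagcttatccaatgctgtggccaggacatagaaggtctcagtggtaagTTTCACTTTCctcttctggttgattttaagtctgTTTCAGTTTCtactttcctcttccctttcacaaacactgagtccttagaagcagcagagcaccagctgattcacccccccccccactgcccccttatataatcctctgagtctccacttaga
Ifit1: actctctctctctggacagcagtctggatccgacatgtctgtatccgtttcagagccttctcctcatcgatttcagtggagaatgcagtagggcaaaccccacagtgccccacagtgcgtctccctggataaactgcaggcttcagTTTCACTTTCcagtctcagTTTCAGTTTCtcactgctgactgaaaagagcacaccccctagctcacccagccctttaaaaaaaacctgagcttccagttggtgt
Isg15: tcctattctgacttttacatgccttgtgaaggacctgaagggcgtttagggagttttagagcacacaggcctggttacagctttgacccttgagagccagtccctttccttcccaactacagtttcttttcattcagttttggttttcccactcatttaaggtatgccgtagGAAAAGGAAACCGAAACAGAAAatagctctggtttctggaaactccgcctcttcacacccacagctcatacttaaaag
*Ifit3* and *Ifit1* hold 2 matches each and *Isg15* 3 that overlap each other. *Ifit2*, which had the smallest interaction p of the list's genes with a window, held no match. Nor did *Ifi44*, whose p was smaller than that of *Ifit1*. Of the list's 20 RefSeq windows, 10 (50%) held the core, against 978 of all 32851 windows (2.98%) and 2.8% of the windows of tested genes. A match describes these letters and shows no binding.

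*Ifit3*, an interferon-induced antiviral protein, was at 50.2, 60.1 and 66.8 CPM in WT_PBS, 71.3, 52.5 and 52.9 CPM in CKO_PBS, and 71, 96.9 and 61.8 CPM in WT_CRE against 121, 272 and 506 in CKO_CRE. All CKO_CRE libraries were above WT_CRE (1.97 ± 0.57, adjusted p = 0.375, or 0.0484 without CKO_CRE replicate 1). *Ifit1*, of the same family, was at 36, 44.6 and 33.5 CPM in WT_CRE against 65.2, 142 and 242 in CKO_CRE (1.73 ± 0.55, adjusted p = 0.401). *Isg15*, a ubiquitin-like modifier, was at 33.6, 47.1 and 29 CPM in WT_CRE against 43.9, 139 and 178 in CKO_CRE, so that replicate 1 fell within the WT_CRE range (1.55 ± 0.59, adjusted p = 0.435, or 0.0443 without CKO_CRE replicate 1 and 0.24 without CKO_CRE replicate 2). *Cxcl10*, a chemokine for activated T cells, gave 1.15 ± 0.71 (adjusted p = 0.577). *Irf1* was the one gene of the 22 below 0 (-0.03 ± 0.19, adjusted p = 0.96).

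**Figure D5:**
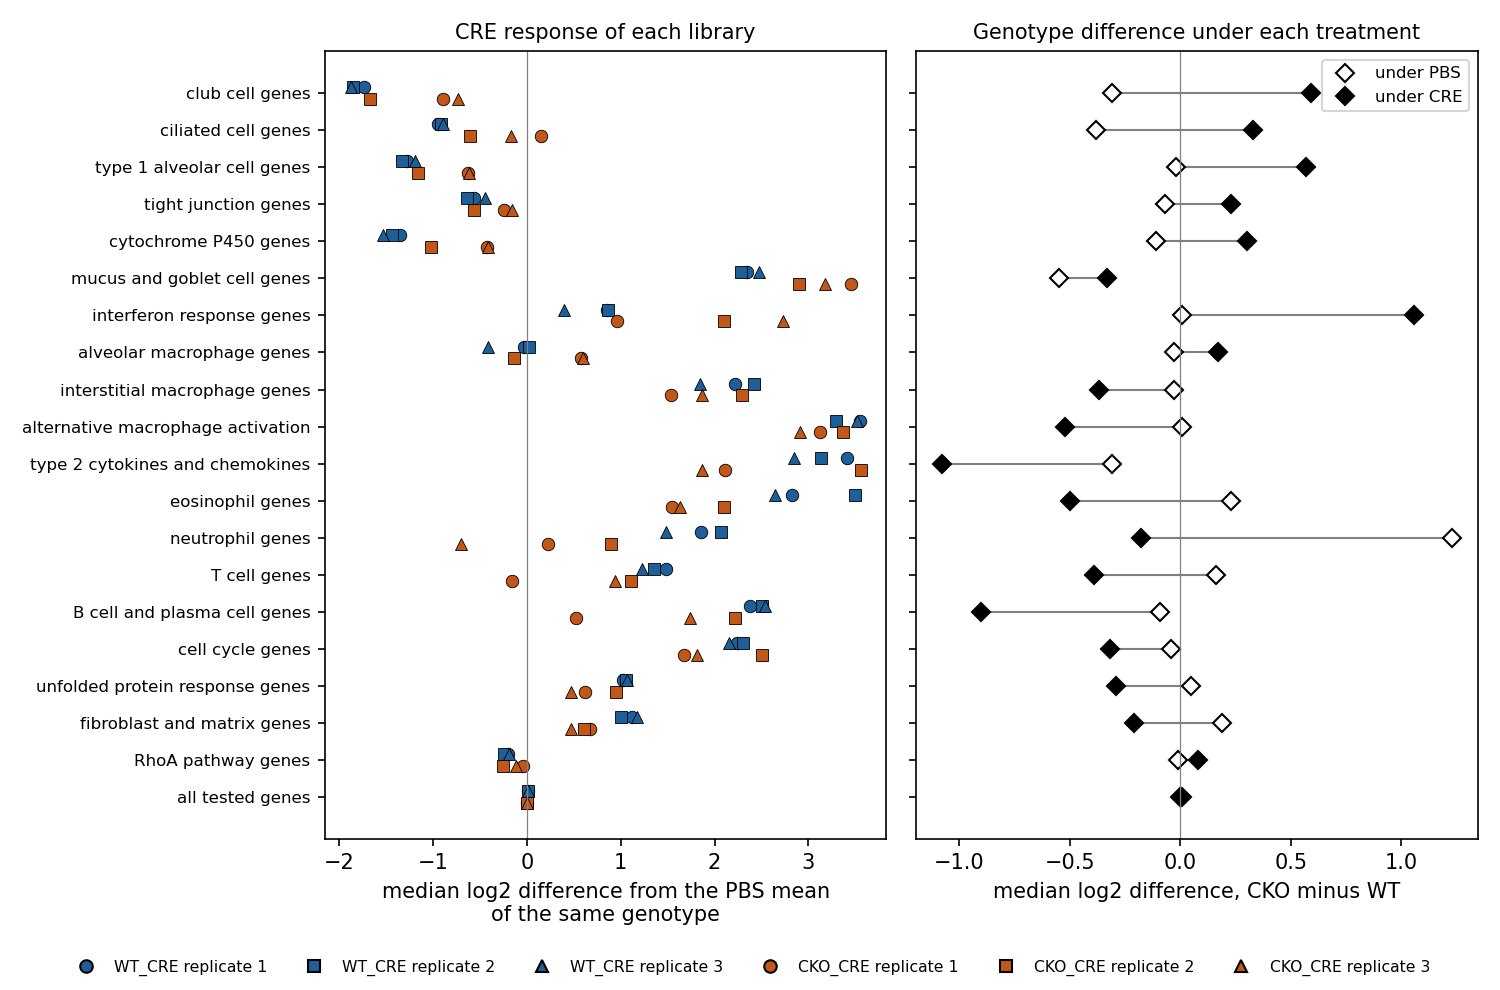
Left, median log2 change of each gene list in single CRE libraries from the PBS mean of the same genotype, blue for WT_CRE and orange for CKO_CRE. Right, median log2 difference between CKO and WT under PBS (open) and under CRE (filled), whose gap shows how much of a list's interaction lies in each treatment. Interferon genes differ under CRE (1.06 against 0.01 under PBS) and neutrophil genes under PBS (1.23 against -0.18 under CRE).

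Other leukocyte and growth lists had smaller or less certain values. T cell genes had a median of -0.64 (17 tested, 1 negative at an unadjusted p below 0.05), B cell and plasma cell genes -0.59 (17 tested, 0) and eosinophil genes -0.88 (10 tested, 2 positive and 2 negative). edgeR and DESeq2 called 0 of the T and B cell lists, and voom 2 and 5, all negative. Of the eosinophil list edgeR called 0, DESeq2 1 negative, and voom 2 positive and 1 negative. Without CKO_CRE replicate 2 edgeR called 2 positive and 3 negative eosinophil genes. Over all tested genes voom called 14.5% positive and 10.6% negative. Single libraries moved these medians, to -0.35 for T cells and -0.25 for B cells without CKO_CRE replicate 1, -0.39 for T cells without CKO_PBS replicate 2, -1.08 for B cells without CKO_CRE replicate 2 and -0.45 for eosinophils without WT_CRE replicate 2. In the B cell list CKO_CRE replicate 1 had the lowest response, a median of 0.52 against 2.22 and 1.74 in replicates 2 and 3 and 2.38 to 2.54 in WT_CRE. Among eosinophil genes, *Ear6* was at 4.42, 4.59 and 3.1 CPM in WT_CRE against 1.32, 2.51 and 0.588 in CKO_CRE from at most 0.721 CPM under PBS (-3.26 ± 1.05, adjusted p = 0.401, or -3.88 and 0.0199 without CKO_CRE replicate 2). *Ear1* and *Ear2* of the same family went the other way, and both are also members of the alveolar macrophage list. With CRE *Ear1* fell (log2 -3.1 in WT and -1.85 in CKO), unlike *Ear6*, and *Ear2* rose (1.18 and 1.8). The interactions of *Ear1* and *Ear2* were 1.25 ± 0.45 (adjusted p = 0.416, or 1.46 and 0.0462 without CKO_CRE replicate 2) and 0.61 ± 0.18 (0.374, or 0.61 and 0.0448). Genes of the unfolded protein response had a median of -0.30 (17 tested, 1 positive and 2 negative at an unadjusted p below 0.05). Those of the cell cycle had -0.32 (18 tested, 1 negative). With all libraries edgeR and DESeq2 called 0 of both lists. voom called 1 positive and 9 negative of the first and 6 negative of the second. Without CKO_CRE replicate 2 edgeR called 8 of 17 and 6 of 18, all negative, against 6.09% of all genes. The cell cycle median was -0.60 in that setting, -0.14 without CKO_CRE replicate 1 or WT_PBS replicate 1 and -0.18 without CKO_CRE replicate 3, and that of the unfolded protein response was -0.19 without CKO_PBS replicate 2. Summed levels of thymus and lymph node genes were 156 to 206 CPM in WT_CRE and 58 to 165 CPM in CKO_CRE, against 12 to 26.6 CPM under PBS. *Ccl19*, *Rag2* and *Ccl21a* were at 0 in both CRE groups and *Ptcra* in CKO_CRE, and their part in the lymphocyte values was not tested.

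Of 24 tested genes of the RhoA pathway itself, 0 passed an unadjusted p of 0.05, edgeR and DESeq2 called 0, and the median interaction was 0.04. voom and edgeR without CKO_CRE replicate 2 each called 5 positive and 1 negative. Over all tested genes voom called 14.5% positive and 10.6% negative, and edgeR in that setting 9.02% and 6.09%. *Rock1* and *Rock2*, the main RhoA kinases, gave 0.00 ± 0.16 (adjusted p = 0.999) and 0.06 ± 0.20 (0.929), with 0.12 and 0.21 without CKO_CRE replicate 2, neither called. *Arhgef12*, a guanine nucleotide exchange factor that activates RhoA, was at 156, 131 and 212 CPM in WT_CRE against 366, 127 and 330 in CKO_CRE, after 546 to 667 CPM under PBS (0.79 ± 0.43, adjusted p = 0.536, or 1.14 and 0.0059 without CKO_CRE replicate 2). *Arhgef12* shares near-identical sequence with other transcripts, so its value is uncertain, and the same holds for *Rhoa*, *Il5*, *Dnah11* and *Ear1*. *Arhgef12*, *Cldn18*, *Cx3cr1*, *Cxcl10*, *Cyp2f2*, *Dnah11*, *Ear1*, *Ear2*, *Gsta3*, *Il5*, *Irf1*, *Rhoa* and *Rock2* overlap genes on the opposite strand. *Cx3cr1*, *Ear1*, *Mrc1*, *Rhoa*, *Rock1*, *Rock2* and *Spp1* overlap genes on the same strand. In both cases reads may be split between the overlapping genes. *Fcgbp*, *Agr2*, *Irf1*, *Krt79*, *Marco*, *Pon1*, *Ifi44*, *Ifit1*, *Ifit2*, *Ifit3*, *Zbp1*, *S100a9*, *Tff2*, *Rock1* and *Rock2* were chosen after their values were seen.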

How the data were processed

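Poly(A) RNA of mouse whole lung was sequenced in 4 groups of 3 libraries, grouped by the genotype and treatment in the labels. The deposited file holds raw read counts per Ensembl gene for 12 libraries. Reads were handled with STAR and fastp on build mm10, per the submitters' processing notes. The counting tool, strand setting and annotation version were not given in the sources used here. Symbols and positions came from GENCODE M21 (GRCm38, mm10), which matched 54495 of 54532 identifiers, and 22229 genes had no count.

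The fit used edgeR 4.0.16 under R 4.3.3, TMM factors, filterByExpr and a mean per group over all 12 libraries, with robust quasi-likelihood dispersions. The biological coefficient of variation was 17.4%. Adjusted p-values are Benjamini-Hochberg values from this test over all 17473 tested genes unless another tool is named, interactions are log2 values ± SE, and CPM use TMM-scaled totals. The scripts were tested on simulated data. Replicate libraries of a group differed by more than sampling noise (chi-square per degree of freedom 4.48 to 81.5), so all were kept. Interaction and both CRE responses share libraries, so the components do not support it independently.

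The comparison, the gene lists and the rules were chosen with earlier results of these data known. Named genes were up to 10 called genes with the smallest p in each direction, averaging 1 CPM or more in the highest of the 4 groups and without predicted, pseudogene, ribosomal, sex-linked or antigen receptor symbols, up to 2 called members per list and direction, and a fixed set around *Rhoa*, type 2 cytokines and club cell genes. Up to 2 members per list and direction called without CKO_CRE replicate 2 were added after seeing the data. Lists are described by counts and medians, with no set test, and some genes belong to several lists. Alternatives were DESeq2 size factors, DESeq2 1.42.0, limma-voom 3.58.1, no filter, a replicate block, sex as a covariate and each library left out. Non-robust dispersions, summed *Rbpj* counts and combinations without CKO_CRE replicate 2 were added after seeing the data. Near-identical copies were sought with blastn 2.17.0 (98% or more over at least 200 bases). Promoters are the 250 bases before the start in RefSeq windows on GRCm38.p6.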

Additional observations from a re-analysis of the deposited data

Results flagged for a closer look

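The CRE response differed between the genotypes by the test of the difference itself for 9 genes. The interaction was 2.99 for *Fpr1*, 1.60 for *Slc16a11*, 1.44 for *Klra2*, 1.44 for *Mcemp1*, 1.35 for *Plet1* and 0.84 for *Axl*. It was -1.22 for *Rbpj*, -1.51 for *Rgs4* and -2.34 for *Tdo2*. Adjusted p over the settings that leave out 1 library ran from 0.000174 to 0.247 across these genes, and *Rbpj* was called in 5 of the 12 such settings, *Fpr1*, *Mcemp1* and *Tdo2* in 3, and the other 5 in 2.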

How the results depend on the processing

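The interaction was called for 9 genes (6 positive, 3 negative), and for 9 with DESeq2 size factors and 8 without robust dispersions. It was called for 119 genes with DESeq2's Wald test (77 positive, 42 negative), 4371 with limma-voom and quality weights (2527 and 1844), 23 without the low-count filter (17 and 6), 2 with sex as a covariate (1 and 1), and 2 with the replicate number as a block (1 and 1). Leaving out each library gave 0 to 2710 calls, 0 to 1618 positive and 0 to 1092 negative. Without CKO_CRE replicate 2 the count was 2069 with sex as a covariate (1294 and 775), 3249 with DESeq2 (1871 and 1378) and 3591 with limma-voom (2104 and 1487), all chosen after seeing the data. The cause of these changes was not tested. The labels do not say that a replicate number pairs samples, and of 18 same-numbered pairs, with correlations of -0.03 to 0.18 (median 0.025), only 4 were above 0.1, so the block was not used in the reported values. Of the 12 libraries, 8 correlated best with their own number, which comes from the data and not from the design. All 4 pairs above 0.1 were of the same sex. Unlike-numbered pairs of the same sex went both ways. CKO_PBS replicate 3 and CKO_CRE replicate 1 were at 0.18, and WT_CRE replicate 3 and CKO_CRE replicate 2 at -0.2. Whether the numbers or the sex of the libraries lie behind these correlations was not tested. Counts of CRE calls stayed within 1.5 times the reported 9927 in WT (7924 to 12082) and 6814 in CKO (4775 to 8012). Signs changed for *Il13* without CKO_PBS replicate 2 (2.19, over single libraries -1.74 to 2.19), for *Scgb1a1* without CKO_CRE replicate 1 (-0.01, range -0.01 to 0.88) and for the median of fatty acid and sterol synthesis genes without it (-0.08, range -0.08 to 0.06). Of 41 list medians, 5 changed sign when a single library was left out, and 1 of these by more than the spread between replicates. *Rhoa* was at -0.02 with limma-voom, -0.04 without CKO_PBS replicate 2 (range -0.04 to 0.09) and -0.02 without CKO_CRE replicate 2, and at -0.05 with sex, -0.03 with DESeq2 and -0.05 with limma-voom in addition. With 3 libraries a group, genes near 0 CPM under PBS had wide errors.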

Other observations

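Adipocyte genes, a tissue that a dissected lung can hold, had the largest median interaction of the gene lists, 1.68 over 6 tested genes, 2 of them positive at an unadjusted p below 0.05. edgeR called 0, DESeq2 1 and voom 2, all positive. *Cfd*, which encodes adipsin and was chosen after its values were seen, was at 18.1, 16.3 and 25.9 CPM in WT_PBS, 5.53, 10.8 and 2.98 CPM in CKO_PBS, and 10.6, 3.88 and 4.49 CPM in WT_CRE against 10.8, 9.12 and 10.3 in CKO_CRE (2.32 ± 0.63, adjusted p = 0.349). Summed adipocyte levels were 30.3 to 47.8 CPM in WT_PBS, 18.5 to 29.8 in CKO_PBS, 9.89 to 17.5 in WT_CRE and 17.4 to 21.6 in CKO_CRE, with *Ucp1* at 0 in both CKO groups.

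Without CKO_CRE replicate 1, the 21 called genes included *Bst2* (1.40, adjusted p = 0.0158), *Rtp4* (1.62, 0.0241), *Xaf1* (1.35, 0.0254), *Ifi27l2a* (2.47, 0.037) and *Cmpk2* (1.80, 0.0484), interferon-induced genes outside the list, chosen after their values were seen. This setting leaves out the CKO_CRE library nearest to WT_CRE for the interferon list. Its calls of interferon genes cannot be read apart from that choice.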
